A study of Mus musculus with 67 samples.

Results

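To ask which genes depend on Gli3 before Hedgehog (HH) signaling reaches the limb, whole forelimb buds of Gli3-/- mouse embryos were compared with those of wild-type (WT) embryos at E9.25, when embryos had 21 to 23 somites. The comparison was chosen by stage, tissue and genotype and not by any measured value, and it holds 7 RNA-seq libraries, 3 WT and 4 Gli3-/-, of the 67 samples of the series and of its 14 RNA-seq libraries. Each library was made from 4 pairs of buds pooled from several embryos. The null allele is Gli3 Xt-J, kept on a Swiss Webster background, and the WT buds are of the same background. Because Xt-J deletes the 3′ part of Gli3, the gene's remaining exons can still be transcribed, and a level over the whole gene still includes those reads. Another 7 libraries, of the anterior part of forelimb buds at E10.5 with 32 to 35 somites (4 WT, 3 Gli3-/-), are used only to set later values beside the genes named here. Nothing in the labels says that the libraries of a group came from separate litters, so p-values measure the spread between these pools.

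GLI3 is a zinc finger transcription factor that binds DNA in the nucleus of HH-responsive cells. Without HH ligand it is cut into a shorter repressor, and ligand stops this processing, so that genes such as Ptch1, which encodes the HH receptor, and Gli1 are switched on. In the limb bud, Sonic hedgehog from posterior mesenchyme patterns the digits, and Gli3-/- embryos later form extra digits. Early limb mesenchyme arises from lateral plate mesoderm at the level where 5′ members of the HoxA and HoxD clusters, LIM-homeobox factors and T-box factors come on, and it lies against the flank, whose lining expresses Foxf1, Gata4 and Hand1.

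Levels are given as log2(TPM + 1), where TPM, a count of transcripts scaled to a fixed total, is a gene's share of the library per unit length. Estimated depth was 38.1 to 56.8 M reads per library, so that 20.9 to 29.3 reads per kilobase give a TPM of 1, and 13276 to 14970 genes had a TPM of at least 1. Of 46983 gene IDs, 14760 reached a TPM of 1 in 3 or more libraries and were tested. Some features of single libraries touch the results. The library labelled WT replicate 2 had a Gli3 level of 4.07, inside the Gli3-/- range of 3.94 to 4.45 and below the 5.50 and 5.51 of WT replicates 1 and 3, and its genes spanning 100 kb or more lay a median of 0.59 below their mean over the 7 libraries. Gli3-/- replicate 1 was high in Afp (alpha-fetoprotein), at 6.51 against 0 to 1.73 in the other 6 libraries. Apoa1 was likewise at 6.18 against 0 to 1.72, and which tissue these RNAs came from was not tested. The ribosomal protein genes of Gli3-/- replicate 1 were at the WT level. Markers also show which sexes the pools held: Ddx3y, on the Y chromosome, was listed at 0 in WT replicate 2, and Xist, the RNA of the inactive X, was 0.05 in Gli3-/- replicate 2 and 3.12 to 6.21 elsewhere. Limb mesenchyme markers were high throughout, with Twist1 at 7.97 to 8.58 and Msx1 at 7.01 to 7.64. Apart from Tubb3 the 19 neural markers together came to a TPM of only 2.27 to 3.65 per library. Tubb3 was lower in every mutant pool, at 2.70, 3.34 and 3.73 in WT and 1.73, 2.04, 2.19 and 2.46 in Gli3-/- buds (limma adjusted p = 0.149). With Tubb3 included, the neural markers summed to a TPM of 8.24 to 15.8 in WT and 5.25 to 6.76 in Gli3-/- libraries.

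Loss of Gli3 moved few genes past the threshold. With limma and Benjamini-Hochberg adjustment, 20 of 14760 genes passed at 0.05, of which 16 rose (0.108% of those tested) and 4 fell (0.0271%), and in all 20 the WT and Gli3-/- libraries did not overlap. The whole distribution was shifted as well. TPM shares out a fixed total, and the median gene was 0.23 higher in Gli3-/- buds, with 73.9% of tested genes above 0. Changes relative to that median gene are therefore given beside the fold changes. At an unadjusted p under 0.05, 22% of genes stood apart, 19.2% higher and 2.78% lower. The groups did not overlap on TPM for 9.97% of genes in the higher and 3.36% in the lower direction, and after each library was divided by a median-of-ratios size factor these shares were 6.65% and 6.29%. Under size factors 27 genes passed (17 higher, 10 lower), under quantile normalization 30 (17 and 13) and with FPKM 36 (24 and 12), so the excess of higher genes depends on the scaling. Which genes passed depended on single libraries too: 4 passed without Gli3-/- replicate 1, 14 without replicate 2, 4 without replicate 3 and 67 without replicate 4, and 196, 18 and 2 passed without WT replicates 1, 2 and 3.

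**Figure D1:**
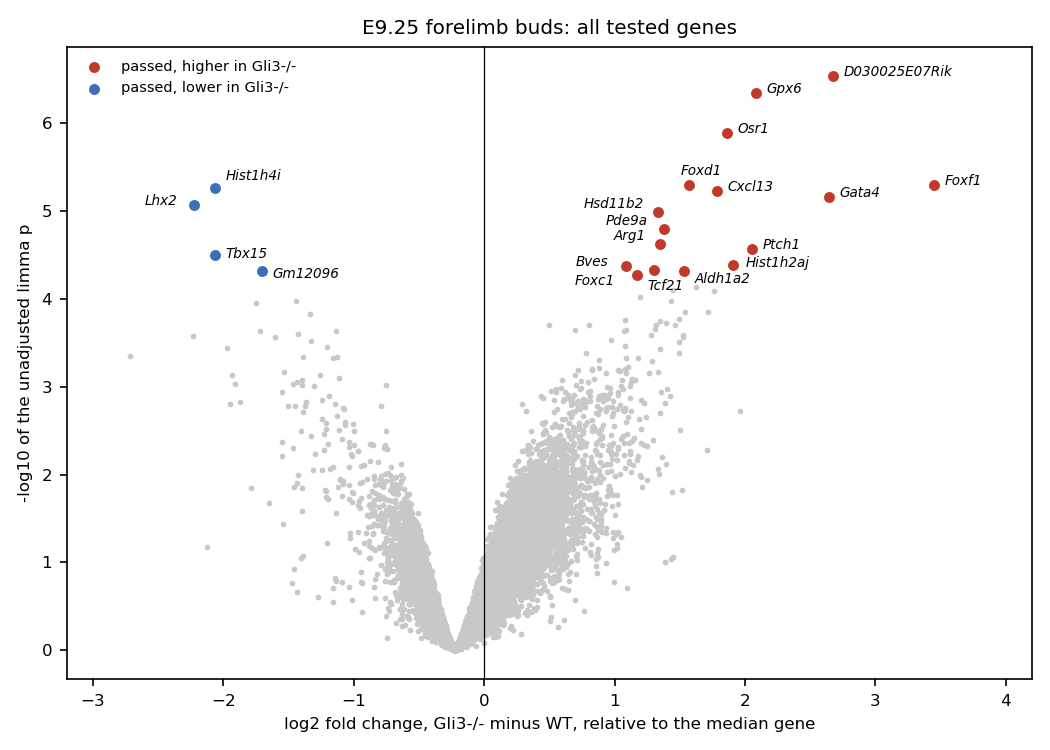
Each of the 14760 tested genes, with the log2 fold change relative to the median gene on the x axis and −log10 of the unadjusted limma p on the y axis. Red points are the 16 genes that rose and blue points the 4 that fell; the low tip of the grey cloud lies left of 0, since the p tests a difference of 0 in TPM and the x axis has the median shift of 0.23 subtracted.

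The genes that rose include 6 transcription factors (Foxf1, Foxc1, Foxd1, Gata4, Osr1 and Tcf21), the HH receptor gene Ptch1, the retinoic acid synthesizing enzyme gene Aldh1a2, the chemokine gene Cxcl13, genes of the enzymes Arg1 (arginase), Hsd11b2 (which inactivates glucocorticoids), Pde9a (a cGMP phosphodiesterase) and Gpx6 (a glutathione peroxidase), the adhesion gene Bves, the histone gene Hist1h2aj and the noncoding RNA D030025E07Rik. Those that fell are Lhx2 and Tbx15, limb bud transcription factors, Hist1h4i, a histone H4 gene, and Gm12096. D030025E07Rik and Gpx6 passed in all 7 fits that each left out 1 library, and 10 of the 20 passed in at least 4 of these fits.

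D030025E07Rik (chromosome 3, 128117015 to 128231606, minus strand, mm10) had levels of 0.56, 0.68 and 0.11 in WT and of 3.79, 3.26, 3.43 and 2.93 in Gli3-/- buds. It was close to the detection floor in every WT pool and clearly expressed in every mutant pool. The rise was 2.90 (standard error 0.25, limma adjusted p = 0.00341), and 2.67 once the median gene's shift was subtracted.

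Lhx2 (chromosome 2, 38339281 to 38369733, plus strand), whose LIM-homeodomain product keeps the distal limb bud responsive to the apical ridge, was at 5.40, 5.68 and 5.51 in WT and at 3.04, 3.89, 3.20 and 4.00 in Gli3-/- buds. All 4 mutant pools lay below the lowest WT pool. Its decrease was the largest among the genes that passed, and it fell by 2.00 (standard error 0.25, limma adjusted p = 0.0142). The relative change was −2.22. Tbx15 (chromosome 3, 99240381 to 99354259), a T-box gene of limb and girdle mesenchyme, was lower in absolute level, at 2.08, 2.75 and 2.88 in WT and 0.90, 0.64, 0.35 and 1.05 in Gli3-/- buds. It fell by 1.84 (standard error 0.26, limma adjusted p = 0.0340), and did not pass without WT replicate 2 (limma adjusted p = 0.0719). Tcf21, Foxc1 and Hist1h2aj also did not pass without that library (limma adjusted p = 0.0725 for each), and Gm12096 was then under the filter.

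Promoter sequences of the mouse RefSeq annotation (GRCm38.p6, windows of 300 bases around a start) were found for 9 of the 20 genes, as 10 windows. GACCACCCA, the letters most often given for a GLI binding site, was searched on both strands and occurred in none of the 10, and in 0.253% of all 32851 windows. Its inner part CCACCCA, which every match of the longer motif contains, occurred on either strand in the windows of D030025E07Rik and Lhx2 and in 9.3% of all windows. These windows are shown for the noncoding RNA that rose and the factor that fell, with the match in capitals (TGGGTGG, the reverse complement). The window found for Ptch1, which lies inside the gene, is shown with them and holds no match. A match of these letters describes the sequence only, and GLI3 binding was not analysed here.
D030025E07Rik promoter, chr3:128231556-128231855, minus strand: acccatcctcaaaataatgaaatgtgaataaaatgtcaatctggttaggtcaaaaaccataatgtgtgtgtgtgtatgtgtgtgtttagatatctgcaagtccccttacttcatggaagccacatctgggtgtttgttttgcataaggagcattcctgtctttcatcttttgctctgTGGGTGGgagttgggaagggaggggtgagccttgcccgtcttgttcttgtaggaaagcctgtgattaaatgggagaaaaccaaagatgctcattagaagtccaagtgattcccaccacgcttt
Lhx2 promoter, chr2:38339031-38339330, plus strand: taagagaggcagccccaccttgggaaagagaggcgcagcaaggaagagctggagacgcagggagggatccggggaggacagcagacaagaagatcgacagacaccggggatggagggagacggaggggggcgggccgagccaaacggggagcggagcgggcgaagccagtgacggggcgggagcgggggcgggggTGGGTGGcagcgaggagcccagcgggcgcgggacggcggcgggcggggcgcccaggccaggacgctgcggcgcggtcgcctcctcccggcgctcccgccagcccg
Ptch1 promoter, chr13:63565686-63565985, minus strand: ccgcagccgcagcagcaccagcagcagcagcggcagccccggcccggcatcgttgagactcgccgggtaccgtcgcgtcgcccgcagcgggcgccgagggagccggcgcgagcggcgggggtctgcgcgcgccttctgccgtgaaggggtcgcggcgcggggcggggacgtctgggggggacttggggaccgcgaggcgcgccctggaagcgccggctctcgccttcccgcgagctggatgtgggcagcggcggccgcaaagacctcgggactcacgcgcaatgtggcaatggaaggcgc

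The D030025E07Rik window was 43% G or C, against 74.7% for Lhx2 and 76.3% for Ptch1. The Lhx2 window is that of the upstream of the 2 starts listed for the gene. Ptch1, on the minus strand, begins at 63573598, so its window is that of an internal start. The absence of a match there says nothing of the upstream end of Ptch1.

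**Figure D2:**
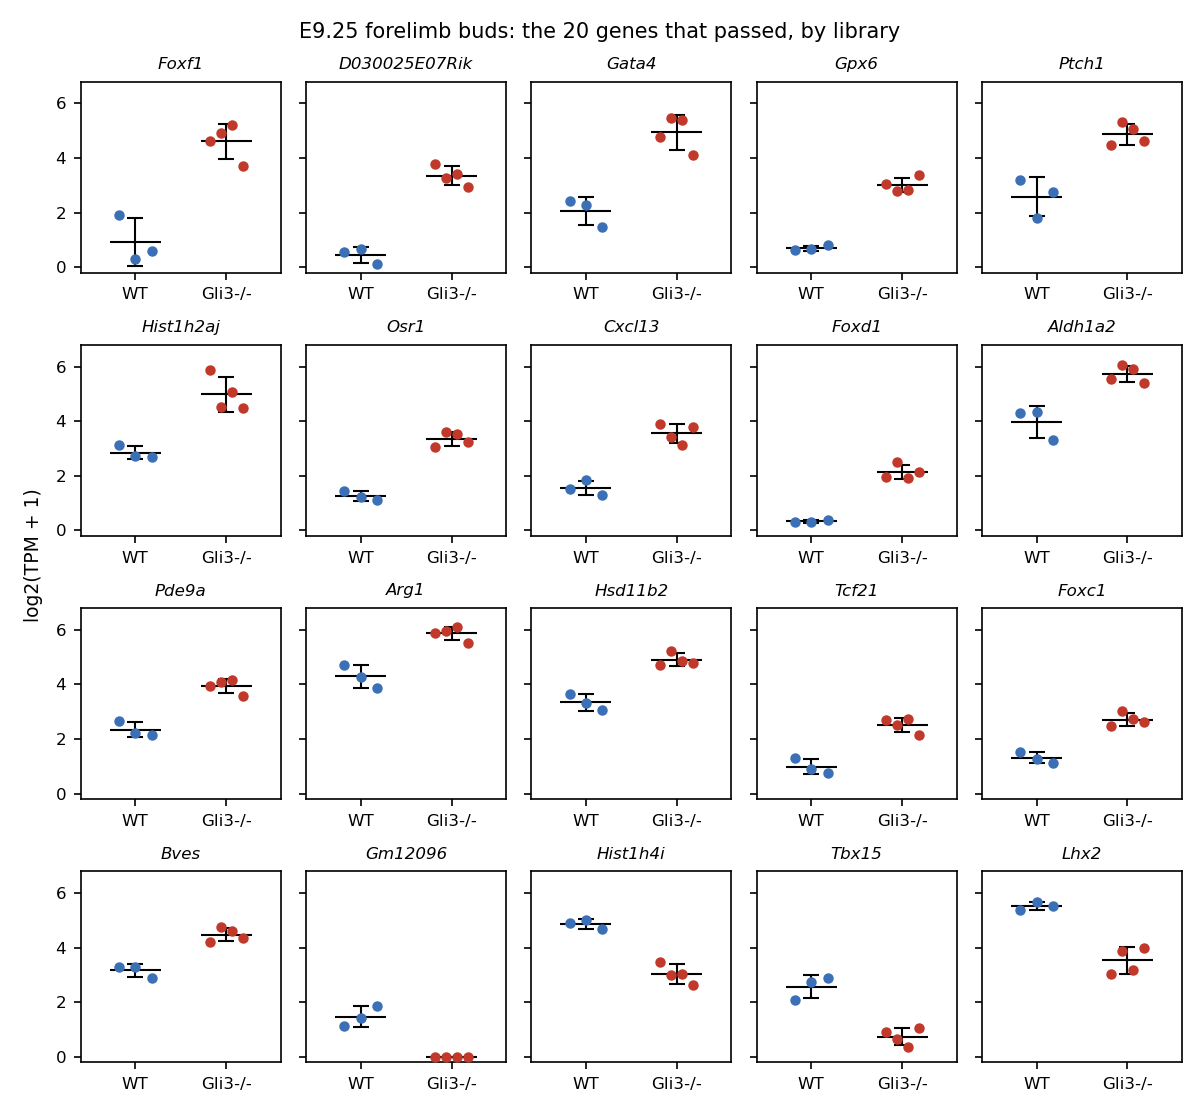
The 20 genes that passed, in order of fold change, with log2(TPM + 1) on the y axis. Points are the 3 WT (blue) and 4 Gli3-/- (red) libraries, horizontal lines are group means and error bars 1 SD; in no panel do the groups overlap, and Gm12096 is listed at 0 in all 4 Gli3-/- libraries.

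Gli3 itself did not pass at E9.25, with a difference of −0.74 (standard error 0.32, limma adjusted p = 0.223), and without WT replicate 2 it did (limma adjusted p = 0.0415). Its levels were 5.50, 4.07 and 5.51 in WT and 3.94, 4.43, 4.45 and 4.33 in Gli3-/- buds. Among the HH pathway genes, Ptch1 was the only one of 29 tested ligands, receptors and regulators that passed. Ptch1 was at 3.18, 1.80 and 2.77 in WT and at 4.48, 5.30, 5.05 and 4.62 in Gli3-/- buds (chromosome 13, 63508328 to 63573598, minus strand), and rose by 2.28 (standard error 0.32, limma adjusted p = 0.0309). Gli1, whose transcription reports HH signaling, stayed below the filter in WT, at 0.56, 0.31 and 0.49, and was at 0.96, 0.99, 1.63 and 0.98 in Gli3-/- buds. The 2 groups did not overlap, but all values were near or under a TPM of 1 except that of Gli3-/- replicate 3, and the gene was not tested. Sufu and Evc, which act between Smoothened and the GLI proteins, did not pass (limma adjusted p = 0.217 for each), with relative changes of 0.43 and 0.42. Over the list the groups did not overlap after size factors in 4 genes in the higher and 2 in the lower direction (13.8% and 6.9%, against 6.65% and 6.29% of all genes), and the median change was 0.27 relative to the median gene. The list's median span was 79.3 kb. Its median relative change was 0.18 without WT replicate 2, and 0.16 with each library's trend over gene span removed.

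Genes that the study predicted as HH targets at the later stage lay on both sides of the median gene. The study chose the list from genes lower in limb buds without Shh and from GLI3-bound regions near them. Of its 65 tested members, 3 rose (Ptch1, Osr1 and Hsd11b2), none fell, 36 lay above and 29 below the median gene, and the median relative change was 0.03. Groups did not overlap after size factors in 12 members in the higher (18.5%) and 6 in the lower direction (9.23%), against 6.65% and 6.29% of all genes. Hand2, a posterior limb factor, was at 5.76, 5.03 and 4.96 in WT and 5.98, 6.51, 6.44 and 5.77 in Gli3-/- buds, and did not pass (limma adjusted p = 0.189). Cdk6, a G1 kinase gene, was at 4.03, 2.18 and 3.87 in WT and 4.23, 5.10, 4.66 and 4.66 in the mutant (limma adjusted p = 0.217), with WT replicate 2 far below the other pools. Grem1, a BMP antagonist, had means of 1.68 and 1.89 (limma adjusted p = 0.559). Hoxd13, which marks posterior distal cells later on, was lower, at 1.75, 1.89 and 1.82 in WT and 1.27, 1.06, 0.70 and 1.28 in Gli3-/- buds (limma adjusted p = 0.207).

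Markers of the flank and lateral plate mesoderm mostly lay above the median gene. Of 17 tested members, 4 rose (Foxf1, Gata4, Osr1 and Tcf21), none fell, 15 lay above the median gene, and the median relative change was 0.87. Groups did not overlap after size factors in 7 members in the higher direction, 41.2% against 6.65% of all genes. In the lower direction they did not in 1, Tbx18, which is named after its values were seen (5.88%, against 6.29%). The list was chosen with earlier results of these data known, so these shares describe it and are no independent test. Foxf1, a forkhead gene of splanchnic and flank mesoderm (chromosome 8, 121084386 to 121088144), was at 1.93, 0.29 and 0.58 in WT and at 4.63, 4.90, 5.19 and 3.71 in Gli3-/- buds. WT replicate 1 was the highest of its group and Gli3-/- replicate 4 the lowest of its own, yet they did not overlap. Foxf1 rose by 3.68 (standard error 0.43, limma adjusted p = 0.0125), the largest change of any gene that passed. Its divergent neighbor Fendrr, a noncoding RNA named here after its values were seen, was at 0.06, 0.05 and 0.06 in WT and at 1.49, 2.53, 2.14 and 1.07 in the mutant, and missed the threshold (limma adjusted p = 0.0800).

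Gata4 (chromosome 14, 63198922 to 63271692), a zinc finger factor of heart and lateral plate mesoderm, was also highest in replicate 1 among WT and lowest in replicate 4 among Gli3-/- libraries, at 2.44, 2.27 and 1.49 in WT and 4.76, 5.46, 5.41 and 4.11 in Gli3-/- buds. It rose by 2.87 (standard error 0.35, limma adjusted p = 0.0128). Osr1 (chromosome 12, 9574442 to 9581499), an odd-skipped factor of lateral plate and intermediate mesoderm, rose by 2.09 (standard error 0.21, limma adjusted p = 0.00636), from 1.44, 1.23 and 1.11 to 3.04, 3.61, 3.52 and 3.24. Both groups of Osr1 were tight and far apart. Hand1, a bHLH factor of lateral plate mesoderm, had levels of 4.68, 2.59 and 3.06 in WT and 5.58, 6.18, 6.32 and 4.43 in Gli3-/- buds; the groups overlapped and it did not pass (limma adjusted p = 0.152). Isl1 (named after its values were seen), Wt1 and Gata5 were also higher in every mutant pool after size factors, and none of them passed.

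The summed TPM of the 19 flank markers was 157.9, 88.3 and 85.5 in WT and 240.3, 342.8, 352.3 and 163.4 in Gli3-/- libraries. The lowest mutant pool, replicate 4, was thus only just above the highest WT pool, replicate 1. All 19 markers were measured, 2 of them under the filter. In pooled tissue, more flank cells in a pool and more RNA per cell cannot be told apart, and the part of dissection in these values was not tested. Nephric and intermediate mesoderm markers, which share Osr1 and Wt1 with the flank list, had summed TPM of 11.4 to 17.2 in WT and 28.5 to 41.0 in Gli3-/- libraries. Lhx1, which marks intermediate mesoderm, was at 1.89, 1.13 and 1.04 in WT and 2.74, 3.04, 3.23 and 2.41 in the mutant (limma adjusted p = 0.0800). Pax2 and Pax8, which define the nephric lineage, were below the filter.

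The tested forkhead and GATA genes, which share Foxf1 and Gata4 with the flank list, also mostly lay above the median gene. All 15 tested forkhead genes lay above the median gene, and 3 rose: Foxf1, Foxd1 and Foxc1. Another 11 of the 26 forkhead genes were under the filter. A gene such as Foxd1 reaches the filter through the Gli3-/- pools alone, so the count of 15 leans toward higher genes. Foxd1, a factor of stromal mesenchyme (chromosome 13, 98354242 to 98356703), was at 0.31, 0.30 and 0.39 in WT, under a TPM of 1, and at 1.96, 2.49, 1.93 and 2.13 in Gli3-/- buds (rise of 1.79, standard error 0.21, limma adjusted p = 0.0125). Foxc1, expressed in paraxial and limb mesenchyme (chromosome 13, 31806691 to 31810643), rose by 1.40 (standard error 0.21, limma adjusted p = 0.0397), from 1.32 ± 0.21 (SD, n = 3) to 2.71 ± 0.24 (SD, n = 4). Broadly expressed members such as Foxp4 had smaller differences (relative change 0.65, limma adjusted p = 0.153). Of 8 GATA and Friend-of-GATA genes 7 lay above the median gene, with a median relative change of 0.71, and 1, Gata4, passed. 
Arg1, the arginase gene (chromosome 10, 24915208 to 24927470), was at 4.73, 4.29 and 3.86 in WT and 5.89, 5.94, 6.12 and 5.52 in Gli3-/- buds (rise of 1.57, standard error 0.22, limma adjusted p = 0.0292). Hsd11b2 (chromosome 8, 105518746 to 105523984) went from 3.65, 3.33 and 3.05 to 4.72, 5.24, 4.86 and 4.79, and Pde9a (chromosome 17, 31386234 to 31476310) from 2.65, 2.21 and 2.16 to 3.94, 4.09, 4.18 and 3.58. These rose by 1.56 and 1.61 (limma adjusted p = 0.0153 and 0.0217). Bves, an adhesion protein gene of epithelium and muscle (chromosome 10, 45335762 to 45369708), had the smallest rise of the 16, 1.31, from 3.30, 3.30 and 2.91 to 4.19, 4.75, 4.61 and 4.36. Tcf21, a bHLH gene of visceral mesoderm (chromosome 10, 22817279 to 22820128), was at 1.30, 0.91 and 0.76 in WT and 2.69, 2.50, 2.73 and 2.15 in the mutant. For all 5 the mutant pools lay together above the WT pools, and WT replicate 1 was the highest or equal highest of its group.

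Limb bud transcription factors were divided. Of 37 tested, 2 fell (Lhx2 and Tbx15), none rose, and the median relative change was 0.10. Groups did not overlap after size factors in 9 members in the lower direction, 24.3% of the list against 6.29% of all genes, and in 3 in the higher. Those lower included Lhx2, Tbx15, Lhx9, Shox2, Lmx1b, Alx4, Msx1 and Etv5, of which Lhx9, Shox2, Lmx1b, Alx4 and Etv5 are named after their values were seen. Lhx9, a paralog of Lhx2 with the same role in the distal bud, was at 5.69, 6.21 and 6.20 in WT and 3.81, 4.69, 3.58 and 5.32 in Gli3-/- buds (limma adjusted p = 0.143). Shox2, needed for the proximal skeleton, was at 2.73, 2.85 and 3.39 and at 1.57, 1.77, 0.97 and 1.54. Neither Lhx9 nor Shox2 passed on TPM, though under size factors Shox2 did (limma adjusted p = 0.0321). Gli3-/- replicate 4 was the closest to WT for Lhx2 and Lhx9, as it was for Foxf1 and Gata4. On the other side, Plagl1, an imprinted zinc finger gene, was at 4.80, 3.53 and 4.07 in WT and 6.27, 6.51, 6.29 and 5.41 in the mutant, and missed the threshold by little (limma adjusted p = 0.0523; 0.0388 under size factors). Factors that identify the forelimb field as a whole, such as Tbx5, Prrx1 and Twist1, had overlapping groups, Tbx5 and Prrx1 being named after their values were seen.

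Hox genes were ordered by their place in the clusters. In each cluster the paralog number runs from 3′ to 5′, and 5′ genes come on later and more distally in the limb. Of 15 tested genes of groups 1 to 5, 14 lay above the median gene and the median relative change was 0.50. Of 9 tested genes of groups 9 to 13 none did, and the median was −1.24. The 8 genes of groups 6 to 8 all lay below it, with a median of −0.36. No Hox gene passed, so these are counts of direction. After size factors the groups did not overlap in 6 of the 15 in the higher and in none in the lower direction, and in 8 of the 9 in the lower and none in the higher, against 6.65% and 6.29% of all genes. Without WT replicate 2 these counts were 9 and 8, against 10.9% and 9.3%, and without Gli3-/- replicate 1 they were 8 and 8, against 14% and 15.5%.

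The largest differences were in the middle of the HoxD and HoxA limb genes. Hoxd10 was at 4.38, 5.35 and 5.62 in WT and 2.84, 3.20, 2.46 and 3.95 in Gli3-/- buds, a relative change of −2.23 (limma adjusted p = 0.0800). Hoxa10 was at 2.88, 3.88 and 4.18 and at 1.92, 2.00, 1.02 and 2.74, and Hoxa11, which patterns the zeugopod, at 2.18, 2.99 and 3.30 and at 1.18, 0.87, 0.50 and 1.92. For each of these genes the highest mutant pool, replicate 4, lay just under the lowest WT pool, replicate 1. Hoxa9 was at 5.08, 5.20 and 5.36 in WT and 3.49, 4.51, 3.40 and 3.96 in the mutant (limma adjusted p = 0.0800; 0.0353 under size factors), and Hoxd9, the most abundant Hox gene here, at 6.77, 7.17 and 7.01 and at 5.56, 6.40, 5.55 and 6.36. At the 3′ end, Hoxb1 was at 4.33, 3.79 and 3.04 in WT and 5.02, 5.62, 5.40 and 5.14 in Gli3-/- buds (limma adjusted p = 0.0783), and Hoxb4 at 4.69, 4.38 and 4.25 and at 5.22, 5.63, 5.35 and 5.25 (limma adjusted p = 0.0792). The summed TPM of groups 9 to 13 was 209.9 to 271.0 in WT and 84.1 to 152.0 in Gli3-/- libraries, and that of groups 1 to 5 was 260.3 to 364.4 and 403.4 to 578.1, so neither sum overlapped.

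**Figure D3:**
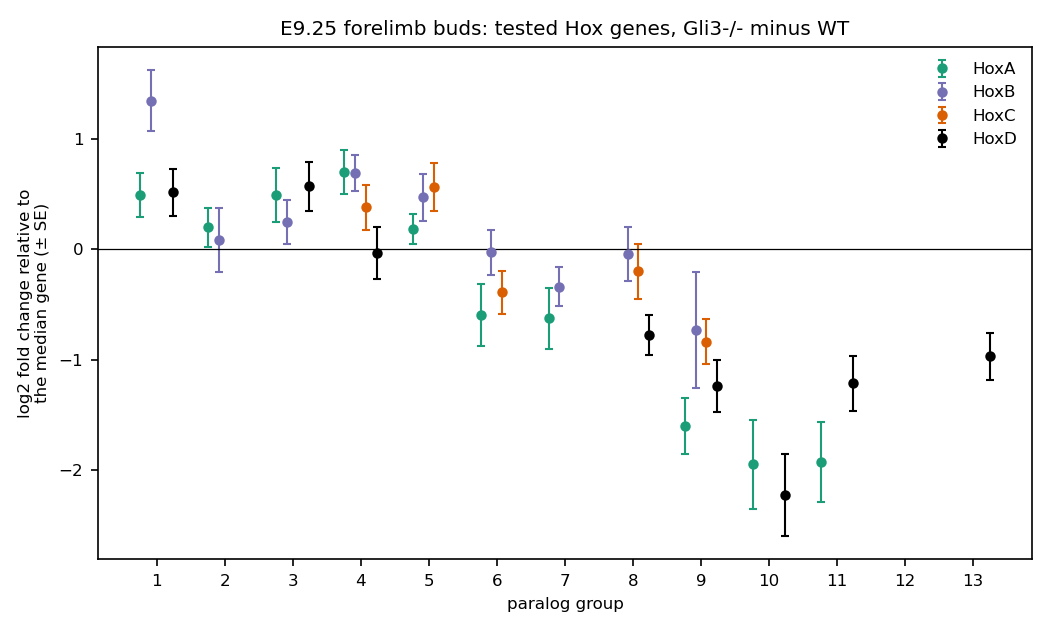
Tested Hox genes by paralog group (x axis) and cluster (color), with the log2 fold change relative to the median gene on the y axis; bars are the standard error of the limma fit. Points of groups 1 to 5 lie mostly above 0 and those of groups 9 to 13 all lie below it.

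The apical ectodermal ridge is the distal epithelium that drives outgrowth through FGFs, and none of its markers passed. Fgf8, the first ridge FGF, was at 5.37, 5.88 and 6.17 in WT and at 4.27, 4.27, 4.22 and 5.23 in Gli3-/- buds. It was lower in every mutant pool, replicate 4 again the nearest to WT, and did not pass (limma adjusted p = 0.130). Dusp6, which FGF signaling induces, had overlapping groups and a relative change of −0.79 (limma adjusted p = 0.217). Fgf9 was higher, at 2.63, 1.05 and 1.44 in WT and 3.10, 3.54, 3.66 and 2.88 in the mutant (limma adjusted p = 0.146). Of 27 tested ectoderm markers none passed, 18 lay below the median gene and the median relative change was −0.13. After size factors 6 were lower without overlap (22.2%, against 6.29% of all genes) and 3 higher (11.1%, against 6.65%). The summed TPM of the list was 393.8 to 609.7 in WT and 534.4 to 707.7 in Gli3-/- libraries. Krt18, a simple-epithelium keratin, was at 5.60, 4.74 and 5.06 in WT and 7.06, 6.63, 7.06 and 5.76 in the mutant (limma adjusted p = 0.130).

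Retinoic acid genes gave 1 increase among 15 tested. Aldh1a2, the enzyme that makes retinoic acid in flank and proximal mesoderm (chromosome 9, 71215789 to 71296243), was at 4.28, 4.32 and 3.29 in WT and 5.54, 6.05, 5.90 and 5.42 in Gli3-/- buds and rose by 1.76 (standard error 0.26, limma adjusted p = 0.0380); under size factors it did not pass (limma adjusted p = 0.0565). Crabp1 and Crabp2, abundant binding proteins for retinoic acid, were lower in every mutant pool. Crabp1 was at 9.34, 9.52 and 9.42 in WT and at 8.75, 8.91, 9.01 and 8.92 in the mutant (limma adjusted p = 0.143), and Crabp2 had means of 9.16 ± 0.13 (SD, n = 3) and 8.59 ± 0.18 (SD, n = 4), with a limma adjusted p = 0.149. Retinoid receptors did not pass, with relative changes of −0.28 to 0.47.

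In the Wnt pathway none of 41 tested genes passed, but 10 were higher without overlap after size factors (24.4%, against 6.65% of all genes) and 3 were lower (7.32%, against 6.29%). Sfrp1, a secreted Wnt inhibitor, was at 5.56, 4.78 and 4.97 in WT and 6.15, 6.76, 6.64 and 6.06 in the mutant (limma adjusted p = 0.0783). Wnt2, a ligand of lateral plate mesoderm, had means of 3.27 ± 0.51 (SD, n = 3) and 4.53 ± 0.33 (SD, n = 4). Wif1, another secreted inhibitor, was lower, at 2.65, 2.56 and 2.78 and at 1.48, 1.68, 1.78 and 1.79, with little spread in either group (limma adjusted p = 0.0947; 0.0314 under size factors). Of 25 BMP pathway genes none passed; Bmp5, a ligand, was at 3.54, 2.52 and 3.15 in WT and 4.54, 4.32, 4.60 and 4.05 in the mutant (limma adjusted p = 0.0937). The FGF list (20 tested), the Notch list (17) and the chemokine list (6) had median relative changes of −0.07, 0.16 and 0.09. Cxcl13, a B-cell chemokine also made by mesenchyme (chromosome 5, 95956951 to 95961068), was the only member of these 3 lists that passed. It was at 1.53, 1.83 and 1.30 in WT and 3.91, 3.42, 3.14 and 3.78 in Gli3-/- buds and rose by 2.01 (standard error 0.24, limma adjusted p = 0.0125).

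Extracellular matrix, vessel and axon guidance genes lay above the median gene without single genes passing. Of 31 matrix and cartilage genes 28 lay above the median gene, with a median relative change of 0.63, and in 9 the groups did not overlap after size factors in the higher direction (29%, against 6.65% of all genes). Without WT replicate 2 that count was again 9, against 10.9% of all genes, but the size of the differences was smaller. Fn1 (fibronectin) was at 6.99, 4.43 and 6.27 in WT and 7.05, 7.78, 7.60 and 7.07 in the mutant, and Col5a1 at 4.18, 2.15 and 3.43 and at 4.42, 5.02, 5.02 and 4.35. Without WT replicate 2 the median relative change was 0.23. Col3a1 and Col9a1, fibrillar and cartilage collagens, did not pass either (limma adjusted p = 0.168 and 0.152). Guidance genes, whose median span was 139.8 kb, had a median relative change of 0.32, or 0.18 without WT replicate 2. Robo2, a Slit receptor, was at 2.24, 1.41 and 1.81 in WT and 3.45, 4.04, 3.90 and 2.75 in the mutant (limma adjusted p = 0.0878), while Sema3a, a repellent, had a relative change of −0.62 (limma adjusted p = 0.221). Of 20 endothelial markers 16 lay above the median gene (median 0.48, and 0.65 without WT replicate 2), and their summed TPM was 162.0 to 277.1 in WT and 287.8 to 459.7 in Gli3-/- libraries. Cdh5, the endothelial cadherin, was at 4.24, 4.02 and 3.29 and at 4.47, 5.42, 5.05 and 4.67 (limma adjusted p = 0.189).

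Housekeeping families lay below the median gene. All but 1 of 81 tested cytosolic ribosomal protein genes lay below the median gene, with a median relative change of −0.50, and their summed TPM was 158753, 176064 and 160892 in WT and 160790, 120806, 132121 and 147236 in Gli3-/- libraries. Gli3-/- replicate 1 was inside the WT range and the other 3 were below it. Nuclear genes of the respiratory chain (80 tested) and mitochondrially encoded genes (37 tested) had medians of −0.38 and −0.30. None of these genes passed, and Rpl35a, the ribosomal gene with the smallest p, had a limma adjusted p = 0.184. Over all genes the median relative change rose with the span of the gene, from −0.19 under 2 kb to 0.18 at 100 kb or more, while the ribosomal genes had a median span of 3.18 kb. With each library's trend over span removed, the medians were −0.41 for ribosomal and 0.47 for matrix genes, and 0.84 for the flank list and −1.16 for Hox groups 9 to 13. Cell cycle, apoptosis, heat shock, glycolysis and erythroid lists had medians between −0.01 and 0.09. Lists of macrophage markers (5 tested), gut and liver endoderm (4), somite and muscle progenitors (9) and of HDACs, PRC2 and co-repressors (29) held no gene that passed and had medians of 0.19, 0.35, −0.21 and 0.16. Imprinted genes (23 tested) had a median of 0.35 with none passing. Among them Nnat, a neuronatin gene, was lower, at 8.22, 8.86 and 8.86 in WT and 7.63, 7.84, 7.71 and 7.76 in the mutant (limma adjusted p = 0.0792). Lbx1, which marks migrating muscle precursors, was at 1.38, 1.91 and 1.67 in WT and 0.38, 0.41, 0.27 and 0.76 in the mutant (limma adjusted p = 0.0800). Ccnd1 and Ccnd2, which encode D-type cyclins, had groups that did not overlap after size factors, and neither passed (limma adjusted p = 0.178 and 0.217). Over the cell cycle list, 3 of 33 tested genes were higher and 3 lower without overlap. That is 9.09% in each direction, near the 6.65% and 6.29% of all genes.

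**Figure D4:**
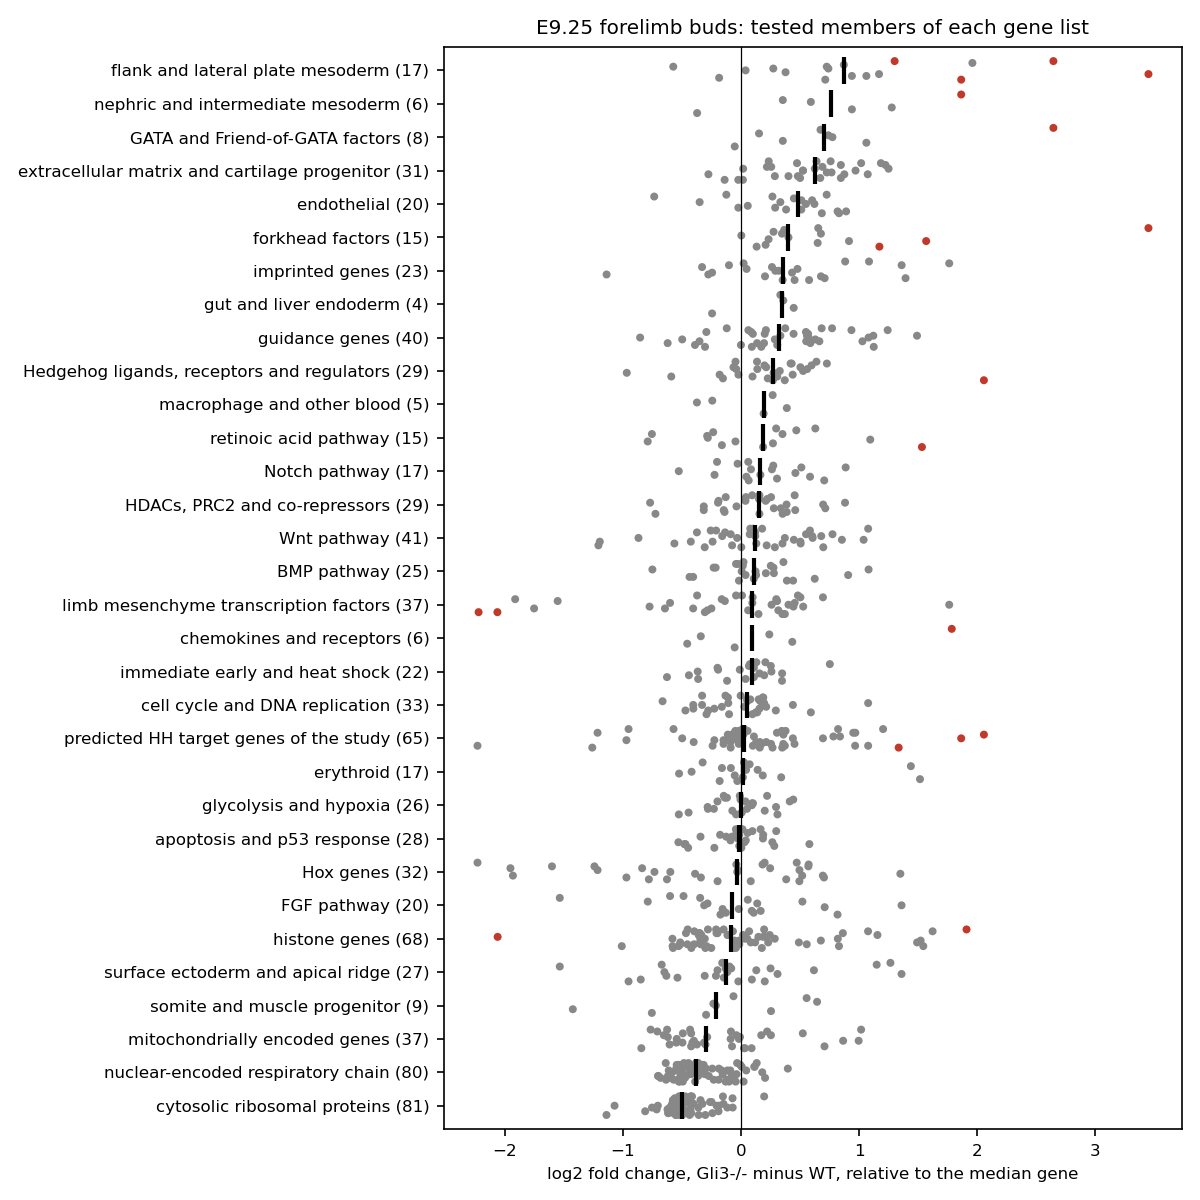
Tested members of each gene list with at least 3 tested (number in brackets), by log2 fold change relative to the median gene; red points are genes that passed and black bars are medians. Flank and nephric lists lie furthest right (medians 0.87 and 0.77) and ribosomal genes furthest left (−0.50), and the Hox and limb factor lists spread to both sides.

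**Figure D5:**
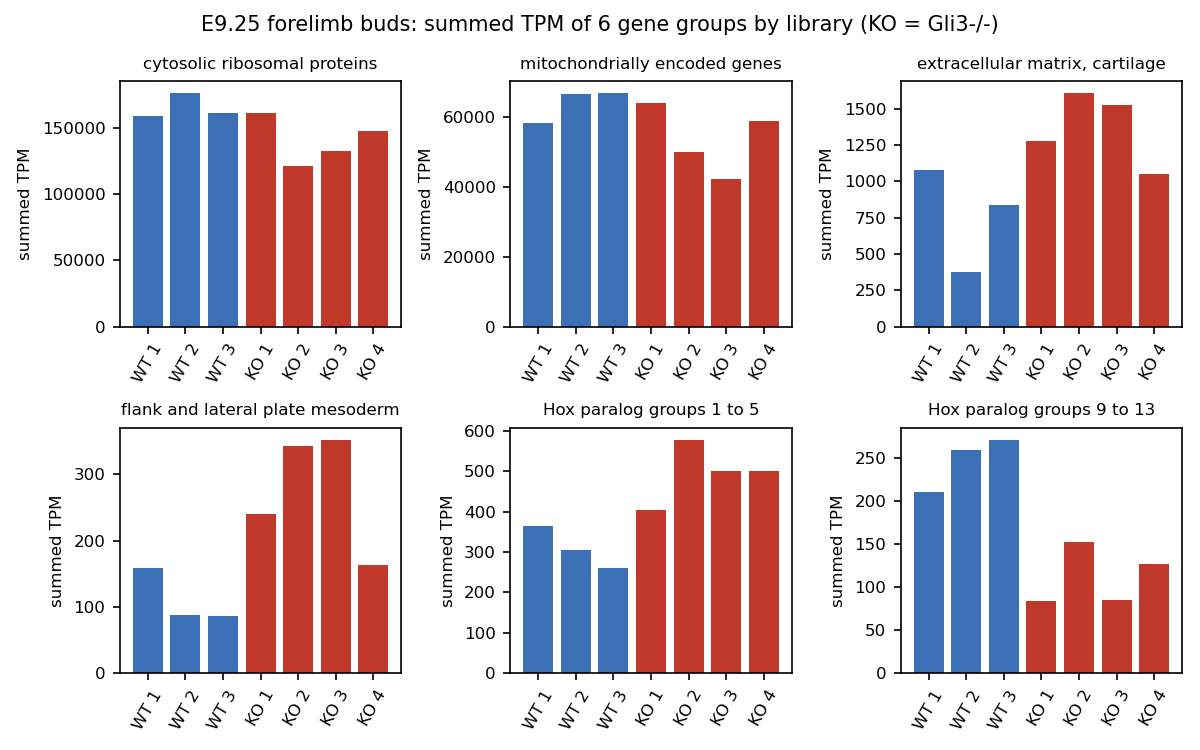
Summed TPM of 6 gene groups in each of the 3 WT (blue) and 4 Gli3-/- (red, KO) libraries; axes start at 0 and differ between panels. Flank markers, matrix genes and both Hox groups are shown beside the ribosomal and mitochondrial genes. Gli3-/- replicate 1 is within the WT range for ribosomal genes, and replicates 1 and 4 are for mitochondrial genes.

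Of the 20 genes 6 lie on chromosome 13, which carries Gli3 itself (15463235 to 15730026): Gpx6, Hist1h2aj, Hist1h4i, Foxc1, Ptch1 and Foxd1. Chromosome 13 holds 555 of the tested genes, of which 1.08% passed, against 0.136% over all genes. Genes close to a mutant allele are inherited with it, so counts are given by distance. Within 20 Mb of the start of Gli3, 4 of 159 tested genes passed, Gpx6 at 5.85 Mb, Hist1h2aj at 6.26 Mb, Hist1h4i at 6.58 Mb and Foxc1 at 16.3 Mb. Within 5 Mb none of 32 passed, but after size factors 7 were lower without overlap (21.9%, against 6.29%) and 3 higher. From 5 to 10 Mb, which takes in a cluster of Hist1 genes, 14 of 92 were higher without overlap (15.2%, against 6.65%) and 6 lower. Between 40 and 110 Mb these shares were 4.05% and 5.74%. Ptch1 lies 48.0 Mb and Foxd1 82.9 Mb away. What inheritance with the allele contributes was not tested.

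Gpx6 (21312217 to 21319624) had little spread in either group, at 0.63, 0.68 and 0.80 in WT and 3.04, 2.80, 2.83 and 3.38 in Gli3-/- buds, a rise of 2.31 (standard error 0.21, limma adjusted p = 0.00341). Histone genes next to it moved in both directions. Hist1h4i was at 4.90, 5.02 and 4.68 in WT and 3.48, 3.00, 3.02 and 2.62 in the mutant and fell by 1.83 (standard error 0.22, limma adjusted p = 0.0125), and of 11 tested Hist1h4 genes it alone did not overlap after size factors. Hist1h2aj rose by 2.14 (standard error 0.31, limma adjusted p = 0.0380), from 3.13, 2.72 and 2.69 to 5.87, 4.51, 5.08 and 4.48. All 14 tested Hist1h2a genes lay above the median gene, 7 of them without overlap after size factors (50%, against 6.65% of all genes), and Hist1h2an, for example, was at 2.97 ± 0.22 (SD, n = 3) and 4.82 ± 0.59 (SD, n = 4). These copies are nearly identical in sequence, and reads of 1 copy may have been shared out over several, so that which copy changed is uncertain. Gm12096 (chromosome 11, 30528295 to 30529401) was at 1.13, 1.42 and 1.88 in WT and listed at 0 in all 4 Gli3-/- libraries. It lies inside Acyp2 on the opposite strand, and Lhx2, Tbx15 and Hist1h2aj also overlap an expressed gene on the opposite strand. The tables do not say whether strand was used in counting, so these pairs cannot be separated.

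Beside these values stand those of the anterior E10.5 buds, where 747 of 15654 genes passed (4.77%). Of the 16 genes that rose at E9.25, 9 were tested at E10.5, 4 rose again and 7 were under the filter. Gpx6 was at 0.55, 0.00, 0.44 and 0.41 in WT and 3.14, 3.08 and 3.08 in Gli3-/- buds at E10.5 (limma adjusted p = 7.36e-05), again with groups far apart. Ptch1 and Hist1h2aj rose by 1.58 and 1.96 (limma adjusted p = 0.000287 and 0.00257), and Bves by 0.82 (limma adjusted p = 0.00499). Foxf1, Gata4, Tcf21, Cxcl13 and D030025E07Rik were near 0 in both genotypes at this stage. D030025E07Rik was listed at 0 in all 7 libraries. Of the 3 decreased genes that were tested, Lhx2 fell again, by 0.74 (standard error 0.12, limma adjusted p = 0.0105), Hist1h4i did not pass (limma adjusted p = 0.239), and Tbx15 was 0.31 higher without passing (limma adjusted p = 0.127).

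Several genes that were lower at E9.25 had the opposite sign in the anterior buds at E10.5, where the tissue dissected differs. None of them had passed on TPM at E9.25. Hoxd13 was at 2.19, 3.86, 2.73 and 1.82 in WT and 6.10, 7.05 and 6.78 in Gli3-/- buds (rise of 3.99, standard error 0.43, limma adjusted p = 0.00118). Hoxd11 and Hoxd10 rose by 2.11 and 0.82 (limma adjusted p = 0.000544 for each), Hoxd9 and Hoxa9 did not pass (limma adjusted p = 0.533 and 0.847), and Hoxa11 and Hoxa10 by 0.80 and 0.46 (limma adjusted p = 0.000643 and 0.00456). Fgf8 rose by 1.36 and Dusp6 by 0.80 (limma adjusted p = 0.000501 and 0.000338). Shox2 rose by 0.79 (limma adjusted p = 0.00456), whereas Lhx9, like Lhx2, was lower at both stages and fell by 0.93 at E10.5 (limma adjusted p = 0.000806). Gli3 fell by 1.01 (limma adjusted p = 0.000335), from 6.36 ± 0.12 (SD, n = 4) to 5.36 ± 0.04 (SD, n = 3). Each stage was fitted on its own libraries, and the difference between stages was not tested.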

How the data were processed

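RNA was extracted by the authors with TRIzol from pooled buds, sequenced as single reads of 100 bases and aligned with HISAT2. The deposited tables list for each gene ID its coverage (a signal, mean depth per base), its FPKM and its TPM, which the authors scaled to a fixed total per library. They hold no counts, and the study's DESeq2 test could not be repeated. The submitters' processing notes name the build mm10, and 99.8% of 33061 symbols overlapped the RefSeq gene of that symbol in GRCm38.p6. The tool and annotation behind the tables are not given in the sources used here. Reads were estimated from the ratio of coverage to FPKM.

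TPM of repeated gene IDs was summed. Genes that reached a TPM of 1 in 3 or more of the 7 libraries were tested on log2(TPM + 1), a scale that understates changes of low genes, with limma 3.58.1 (lmFit, eBayes with a trend) in R 4.3.3, two-sided, with Benjamini-Hochberg adjustment over all tested genes and a threshold of 0.05. Each stage was fitted alone. The 34 gene lists were not tested and are described by counts, by groups that do not overlap and by medians. Genes named are Gli3, all that passed, Gli1, Ptch1, Hand2, Hoxd13, Grem1, Cdk6 and, from each list, the 3 members of smallest p and the 3 of highest TPM; others are said to be named after their values were seen, or appear only in counts of their list. Members and lists were chosen with earlier results of these data known, so their shares beside those of all genes are descriptions and no test. A gene can also reach the filter through the libraries of 1 group alone.

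In simulated data for this comparison (14760 genes), 56 of 100 genes changed by 1 log2 and 91 of 100 changed by 2 were called, with 7 unchanged genes. The simulated noise was independent between genes, without the shifts and span trends of whole libraries seen here. These rates may therefore not hold for the real libraries. The alternatives tried were a pseudocount of 0.1, a filter at 5 TPM and none, eBayes without a trend, quantile normalization, size factors, FPKM, mitochondrial genes left out, sample weights, the replicate number as a block, all 14 libraries together and each library left out. Removal of the span trend (20 bins) was added after seeing the data. Other steps used Python 3.11.15, pandas 2.3.3, NumPy 2.4.6 and matplotlib 3.10.9. Data types other than RNA-seq were not used here. Some genes are not reported here.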

Additional observations from a re-analysis of the deposited data

Results flagged for a closer look

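In 7 genes picked out of those named here, all Gli3-/- libraries lay below all WT libraries at E9.25 and above them at E10.5. This is not a count over all genes. The share of all tested genes that did both is not given here, so the 7 cannot be set against it. At E9.25 alone, 3.36% of all tested genes were lower without overlap on TPM. The E10.5 differences between group means were 3.99 for Hoxd13, 2.11 for Hoxd11, 0.82 for Hoxd10, 0.80 for Hoxa11, 0.46 for Hoxa10, 1.36 for Fgf8 and 0.79 for Shox2. Tbx15 did the same with a smaller difference of 0.31 at E10.5, where it did not pass. Whether the stages differ was not tested, and the E10.5 libraries are of anterior buds only.

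Single libraries stood apart by Dixon's criterion, which chance alone meets in about 1 in 20 groups. Only groups of 4 were examined, which leaves out the WT libraries at E9.25 and the Gli3-/- libraries at E10.5. How many groups were examined is not given here. Among Gli3-/- libraries at E9.25, Gli1 was 1.63 in replicate 3 against 0.96 to 0.99 in the others, Fgf8 was 5.23 in replicate 4 against 4.22 to 4.27, and Xist was 0.0502 in replicate 2 against 5.41 to 6.21. Among WT libraries at E10.5, replicate 3 had a Bves level of 1.94 against 2.09 to 2.12 and a Gm12096 level of 1.53 where the other 3 list 0.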

How the results depend on the processing

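Between 2 and 196 genes passed when each library was left out in turn, against 20 with all 7, and of genes within 20 Mb of Gli3 between 1 and 10 passed, against 4. Without a filter 0 genes passed in limma after adjustment (3542 at an unadjusted p under 0.05), and 0 near Gli3. The count rose to 36 with FPKM, 39 with the span trend removed, 53 with sample weights and 1185 when all 14 libraries shared the spread. Near Gli3 it rose to 8, 7 and 26 for the last 3 of these. A replicate block gave 66 genes, 18 of them among the 20, and 8 near Gli3. Same-numbered libraries deviated from their group means with r of −0.20 to −0.16 across genes. Other pairs had r of −0.25 to 0.23, with a mean of 0.06. Same-numbered libraries were thus not more alike than others, but so few values cannot exclude shared litters or preparation. The median gene's shift of 0.23 became 0.0939 without a filter, 0.00029 under quantile normalization, 0.0110 with size factors, 0.0731 with FPKM and 0.0127 with the span trend removed, and ranged from 0.14 to 0.29 when libraries were left out. Of the 20 genes, 14 also passed with a pseudocount of 0.1, 18 with size factors, 16 with quantile normalization and 19 with FPKM. Under every alternative each of the 20 kept its direction where it was tested. Grem1 changed sign under quantile normalization, at −0.0434. At E10.5, Lhx2 did not pass without a filter or with a replicate block, nor did Bves and Hoxa10 with a block, and Lhx2, Hoxd10, Hoxa10, Hoxa11, Lhx9 and Gli3 did not when all 14 libraries shared the spread.

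Without WT replicate 2 the median relative change was 0.23 in place of 0.63 for matrix genes and 0.18 in place of 0.32 for guidance genes. The summed TPM of ribosomal genes in Gli3-/- replicate 1 was within the WT range.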
